A study of Mus musculus with 16 samples.

Results

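The genes described here are 79 nuclear-encoded subunits of the mitochondrial oxidative phosphorylation system, out of 14829 genes measured. They were taken by their symbols alone, as the rows named Nduf with a letter A, B, C, S or V (complex I, 35 genes), Sdha to Sdhd (complex II, 4 genes), Uqcr (complex III, 8 genes), Cox4 to Cox8 (complex IV, 15 genes) and Atp5 (complex V, 17 genes). Messenger RNA was counted in 16 libraries of mouse hematopoietic stem cells (HSCs), the rare marrow cells that renew themselves and give rise to all blood lineages. The marrow of 8 mice, 4 young and 4 old, was used directly. A portion from each mouse was exposed ex vivo to dmPGE2, a long-lived analogue of prostaglandin E2, and another portion to vehicle, in both cases for 1 h at 37 °C, before sorting and RNA extraction. The groups are therefore young vehicle, young dmPGE2, old vehicle and old dmPGE2, with 4 libraries each, and no genetic change is given for any of them. The labels give the age only as a word, and no strain or sorting gate. They also carry 2 dates, each shared by 2 young and 2 old mice, and leave unsaid what was done on them.

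Complexes I and II pass electrons from NADH and succinate to ubiquinone, complex III passes them to cytochrome c, and complex IV passes them to oxygen. Complexes I, III and IV pump protons across the inner mitochondrial membrane, and complex V, the ATP synthase, uses the returning protons to make ATP. HSCs at rest are known for a low reliance on this system and raise it when they enter division and differentiation.

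The 79 genes lay on 19 chromosomes, with at most 8 on a single one (chromosome 7). They were short: the median exon length was 724 bases against 2806 bases over all genes, and 52 of them were under 1 kb. Many of these genes have processed pseudogenes, and some (Atp5g1 to Atp5g3) share coding sequence. The sources used here do not give how the strand of a read, or a read that matches several places, was handled. The counts of such genes are uncertain to that extent. Of the 79 genes, 78 passed the filter on low counts in each age comparison, and all 79 passed in the dmPGE2 comparison. Cox7a1, the heart and muscle form of a complex IV subunit, was the gene that failed it. Levels below are in CPM, the counts scaled to a common library size, and where genes are compared with each other they are CPM per kilobase of exon.

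Promoter sequence was available from RefSeq for 63 of the 79 genes, as 68 windows that run from 250 bases before to 50 bases after the annotated start. The bases before the start are shown for the 3 genes of the ATP synthase c subunit, Atp5g1, Atp5g2 and Atp5g3, which encode the same mature protein and all had lower counts in old vehicle libraries, and for Sdhd, the complex II gene that was lower in old libraries in both arms. All are on the minus strand of GRCm38.p6 and read 5′ to 3′ towards the start site, without any base inside the gene as the deposited table places it. Atp5g1 is at chr11:96075695-96075881, Atp5g2 at chr15:102671048-102671297, Atp5g3 at chr2:73911327-73911576 and Sdhd at chr9:50603850-50604099. Capitals mark the letters named in the next paragraph.
Atp5g1: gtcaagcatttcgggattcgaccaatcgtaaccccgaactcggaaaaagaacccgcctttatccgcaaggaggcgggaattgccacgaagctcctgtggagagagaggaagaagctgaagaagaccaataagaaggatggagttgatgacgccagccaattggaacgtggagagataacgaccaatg
Atp5g2: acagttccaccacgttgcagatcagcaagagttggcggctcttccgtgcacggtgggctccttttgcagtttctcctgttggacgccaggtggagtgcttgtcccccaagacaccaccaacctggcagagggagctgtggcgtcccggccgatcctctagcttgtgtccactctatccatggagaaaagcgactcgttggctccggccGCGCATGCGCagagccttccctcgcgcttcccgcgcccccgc
Atp5g3: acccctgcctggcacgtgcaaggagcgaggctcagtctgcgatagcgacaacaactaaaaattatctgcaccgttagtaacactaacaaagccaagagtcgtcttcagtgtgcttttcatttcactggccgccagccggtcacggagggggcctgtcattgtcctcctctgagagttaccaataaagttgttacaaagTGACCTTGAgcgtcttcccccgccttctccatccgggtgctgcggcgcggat
Sdhd: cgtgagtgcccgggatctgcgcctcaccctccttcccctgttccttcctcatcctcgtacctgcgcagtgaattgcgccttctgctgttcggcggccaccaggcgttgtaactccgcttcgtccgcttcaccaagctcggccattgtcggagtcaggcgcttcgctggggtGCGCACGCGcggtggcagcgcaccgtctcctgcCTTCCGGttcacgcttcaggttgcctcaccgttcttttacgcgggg

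Letters known to be bound by factors that act on mitochondrial genes were searched on both strands of the windows. GCGCANGCG (NRF1, a regulator of respiratory chain genes) was in 20 of the 68 windows (29.4%), against 6.25% of all 32851 promoter windows. CCGGAAG (GABPA, an ETS family factor) was in 16 windows (23.5%), against 8.86% of all. AAGATGGCG (YY1) was in 7 windows (10.3%), against 1.4% of all, and TCAAGGTCA (ERR alpha) was in 2 windows, against 0.423% of all. By complex, the NRF1 letters were found for 7 genes of complex I, 2 of complex II, 2 of complex III, 1 of complex IV and 7 of complex V. In the bases shown, Atp5g2 and Sdhd have the NRF1 letters, Sdhd also has the GABPA letters and Atp5g3 has the ERR alpha letters, while Atp5g1 has none of them; in Atp5g2 the NRF1 letters overlap on both strands. These are matches of letters only, and binding was not measured.

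Library totals ran from 12960704 to 19226963 counts. The HSC label was checked against 10 stem cell genes, all of them detected. In the vehicle libraries they summed to 3940 to 4280 CPM in young and 4570 to 5290 CPM in old mice on date 1, and to 2670 to 2840 against 3960 to 4050 CPM on date 2. Markers of mature blood cells stood apart by date: 10 myeloid genes summed to 627 to 852 CPM in the date 1 libraries and to 2520 to 5290 CPM in the date 2 libraries. In the vehicle libraries, these 10 genes gave 674 to 796 CPM in young and 699 to 852 CPM in old mice on date 1, and 3720 to 5290 CPM against 2520 to 2780 CPM on date 2. In young vehicle libraries of date 2 the myeloid sum was thus above the stem cell sum. Over the 16 libraries Lyz2 had 417 to 1070 CPM and Prtn3 107 to 361 CPM, and these genes weigh heavily in the date 1 sums. The lowest values of the other myeloid genes ran from 0 (Camp) to 1.91 CPM (Mpo), so the date 1 sums say little about them. The 10 erythroid genes in the table gave 1800 to 2000 against 1810 to 2040 CPM on date 1, and 3550 to 4000 against 2250 to 2340 CPM on date 2. Car2 alone had 1560 to 2050 CPM over the 16 libraries and weighs heavily in the erythroid sums of date 1. The 9 T and NK cell genes in the table summed to 61.7 to 84.3 CPM in young and 27.6 to 47.3 CPM in old vehicle libraries on date 1. On date 2 they summed to 277 to 322 against 126 to 168 CPM, so the sum was lower in old mice on both dates. Nkg7 had 23.3 to 179 CPM over the 16 libraries and weighs heavily in the date 1 sums. Cd3d, Cd3e, Cd3g, Cd8a, Klrd1, Gzma and Gzmb were each at 0 in 3 to 8 of the libraries. The age comparisons below therefore have a term for date, and values within each date are given beside them. The B cell genes (8 in the table) summed to 39.8 to 119 CPM, of which Cd79b alone had 37.8 to 61.6 CPM. The sum hides changes in the other genes, as Cd79a ran from 0 to 22.8 CPM and Ms4a1 from 0 to 15.4 CPM. Pax5 and Igll1 were at 0 in 10 of the 16 libraries. In such bulk RNA, fewer cells of a type and less RNA in each cell cannot be told apart.

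The 79 genes together took 1.37% ± 0.0666 of a library's counts in libraries of young mice after vehicle and 1.23% ± 0.0904 after dmPGE2. In old mice they took 1.13% ± 0.0497 after vehicle and 1.1% ± 0.0811 after dmPGE2 (mean ± SD, n = 4 each). Complex V took the largest share, 0.536% ± 0.0233 in young vehicle libraries, and complex I took 0.38% ± 0.0206. Complexes IV, III and II took 0.195% ± 0.0206, 0.141% ± 0.00703 and 0.118% ± 0.00638. In vehicle libraries every complex had a lower mean share in old than in young mice, and the ranges of the groups did not overlap for complex I, complex II, complex III, complex V or the sum. For complex IV the ranges met, with 0.143 to 0.173% in old and 0.169 to 0.219% in young mice.

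**Figure D1:**
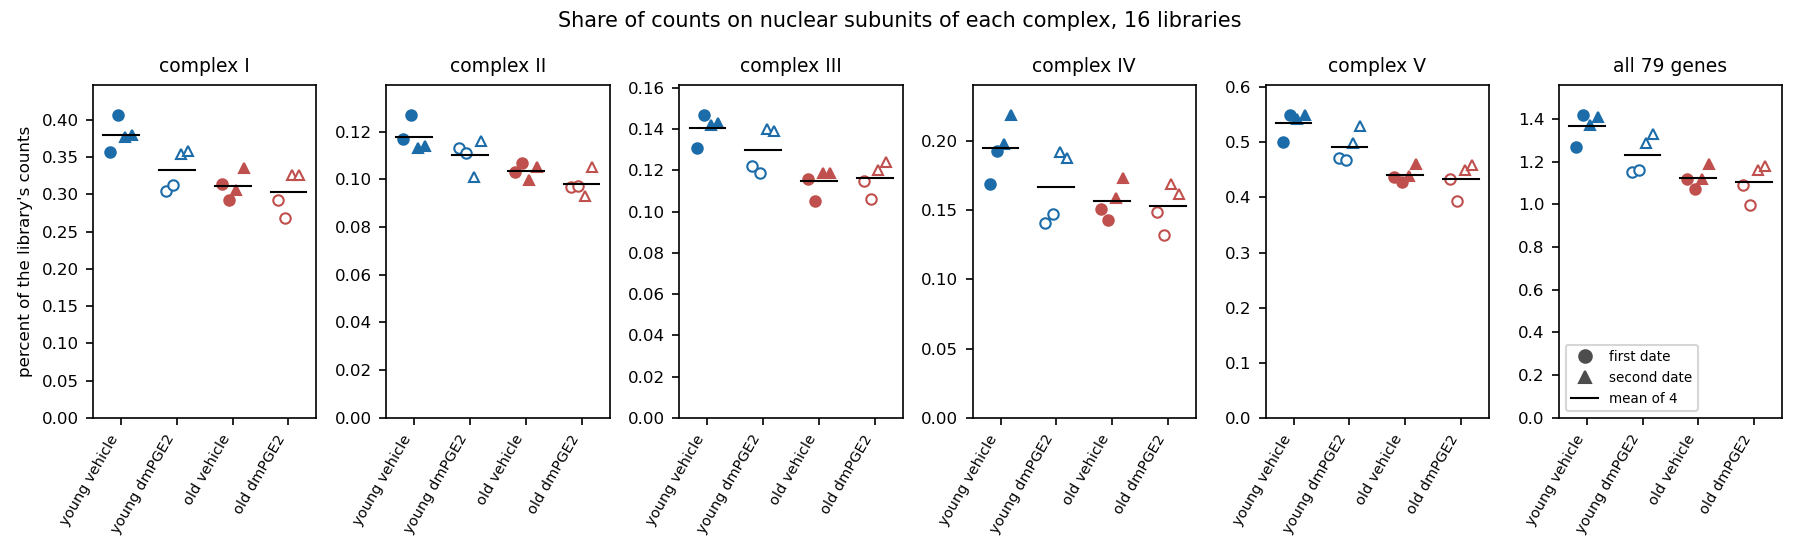
Percent of each library's counts on the nuclear subunits of complexes I to V and on all 79 genes. Each point is 1 library (circles, date 1; triangles, date 2), open points are dmPGE2 libraries and bars are means of 4. For all 79 genes the young vehicle libraries lie between 1.27 and 1.42% and the old vehicle libraries between 1.07 and 1.19%.

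Per kilobase, the catalytic core of the ATP synthase led the list. Atp5b, the catalytic beta subunit, averaged 781 CPM per kb over all libraries, followed by Atp5a1, the alpha subunit, with 507 and Cox4i1, the ubiquitous form of complex IV subunit 4, with 414. The lowest were Cox7a1 with 1.32, Cox4i2 with 2.82 and Cox6a2 with 5.75 CPM per kb, which are forms of complex IV subunits known from heart, muscle or lung. Within complex II, Sdha, the flavoprotein that oxidises succinate, had 215 CPM per kb, Sdhb 156, Sdhd 153 and Sdhc 80.0, although the protein complex holds 1 copy of each. In vehicle libraries of young mice, Sdha had 220.4 ± 10.7 and Sdhb 176 ± 19.3 CPM per kb (SD, n = 4).

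Subunit messages were lower in old than in young vehicle libraries, which the labels give as HSCs. Of 78 genes tested, 44 had lower counts in old mice at an adjusted p under 0.05 and 0 had higher counts (edgeR quasi-likelihood test, Benjamini-Hochberg adjustment over all 13369 genes). Over all genes tested 8.86% were lower and 17.3% changed in either direction. The median difference over the 78 genes was -0.30 on the log2 scale (-18.5%), against -0.00 over all genes, and 75 of the 78 lay below 0. Every complex took part: 14 of 35 genes were lower for complex I, 3 of 4 for complex II, 5 of 8 for complex III, 10 of 14 for complex IV and 12 of 17 for complex V. The medians were -0.28, -0.35, -0.29, -0.34 and -0.31 for complexes I to V, so they differed by less than 0.1 from each other; a difference between complexes was not tested. For 23 of the 78 genes every old library was below every young library, against 6.84% of all genes, and for 60 of the 78 old was below young within each date, against 13.7% of all genes. In the same comparison 8 of 10 stem cell markers were higher in old mice. Lower were 4 of 10 myeloid, 2 of 10 erythroid, 1 of 9 T and NK (Nkg7) and 0 of 4 tested B cell markers. The myeloid marker Prtn3 was higher in old mice (0.78 ± 0.12, edgeR adjusted p = 0.00168). The part of these cell types in the result was not tested.

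**Figure D2:**
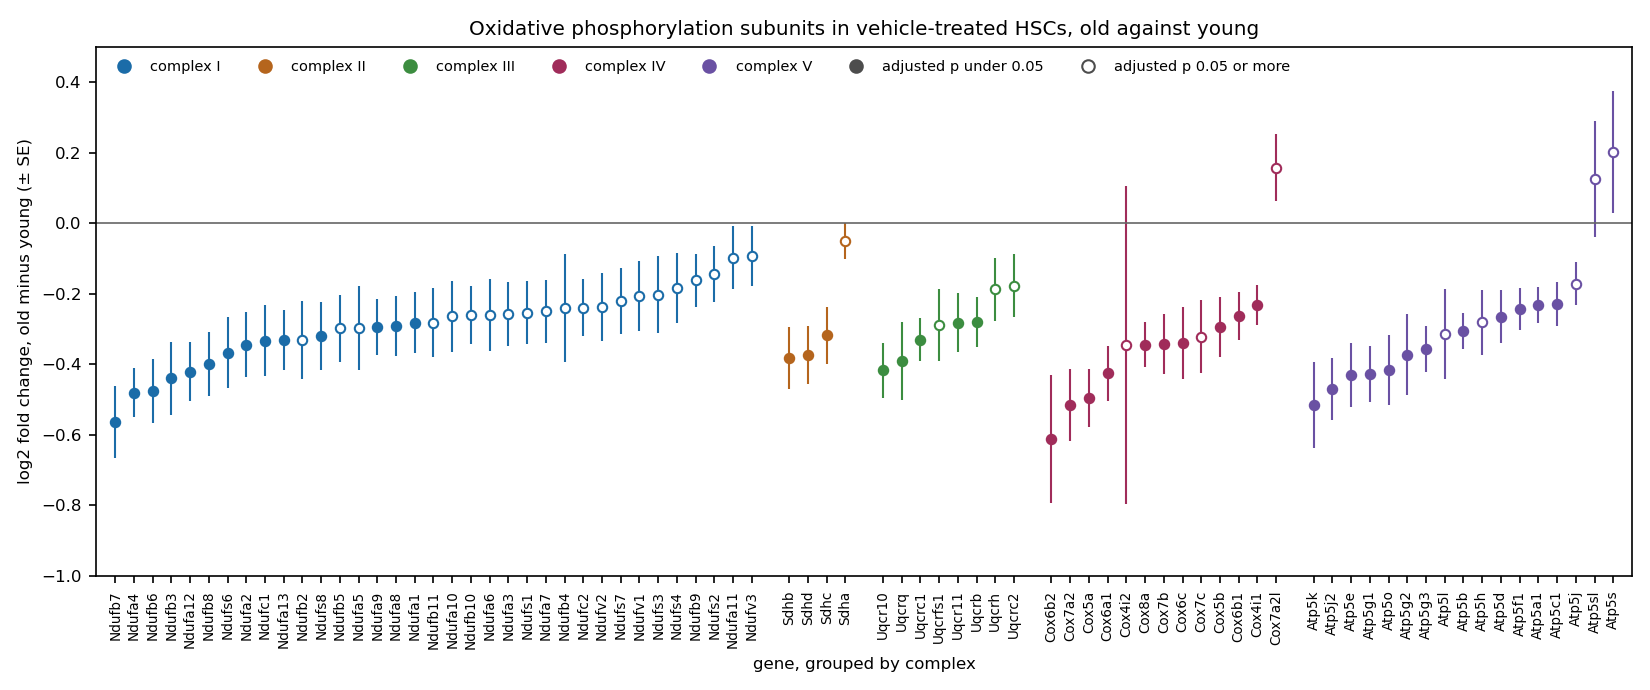
Log2 fold change of each subunit gene in vehicle libraries, old minus young (4 against 4 mice, date as a term, bars ± SE), grouped by complex. Filled points passed an adjusted p of 0.05. All filled points lie below 0, and Cox6a2 (-1.57 ± 0.56) is left out because it falls off the axis.

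The values below are in CPM and give the young mice in the order 477, 478, 483 and 484 and the old mice in the order 479, 480, 485 and 486, where the first pair of each is from date 1. Ndufa4, which carries a complex I name and whose protein is known to sit in complex IV, had the smallest p of the 78 genes tested. It lies at 6:11900373-11907446 (minus strand, mm10, as the deposited table gives it) and had 204, 222, 219.7 and 230.5 CPM in young vehicle and 154, 142, 166 and 178 CPM in old vehicle libraries. All 4 old libraries were below all 4 young ones, and the log2 fold change was -0.48 ± 0.07 (edgeR adjusted p = 0.00099). Ndufb7 (8:83566758-83571623, plus strand), an accessory subunit of the complex I membrane arm, had 72.3, 92.7, 111 and 114 CPM in young and 60.5, 55.9, 70.0 and 80.6 CPM in old libraries. Here the groups overlapped across dates and were separate within each, with a log2 fold change of -0.56 ± 0.10 (edgeR adjusted p = 0.00377).

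Complex I has 7 nuclear core subunits that carry the flavin and the iron-sulfur clusters and, in this set, 27 accessory subunits that surround them. Of the core genes 1 of 7 was called lower in old vehicle libraries, and of the accessory genes 12 of 27, with medians of -0.22 and -0.29; whether these groups differ was not tested. The called core gene was Ndufs8, which holds 2 iron-sulfur clusters near the ubiquinone site, at -0.32 ± 0.10 (edgeR adjusted p = 0.0441). Ndufs1, the largest iron-sulfur subunit, Ndufv1, which binds FMN, and Ndufs7, next to the ubiquinone site, had log2 values of -0.25 ± 0.09, -0.21 ± 0.10 and -0.22 ± 0.09 and adjusted p values of 0.0785, 0.187 and 0.133 in the same edgeR fit. All 35 complex I genes had values below 0.

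In complex II the catalytic flavoprotein and its partners stood at different values, and whether they differ was not tested. Exon lengths were 2859 bases for Sdha and 1073, 1179 and 1285 bases for Sdhb, Sdhc and Sdhd. Sdha had 664, 647, 596 and 614 CPM in young and 610.0, 651, 605 and 607 CPM in old vehicle libraries. These groups overlapped, and the log2 fold change was -0.05 ± 0.05 (edgeR adjusted p = 0.565). Sdhb, the iron-sulfur subunit, had 163, 212, 196 and 183 CPM in young and 138, 139, 153 and 159 CPM in old libraries. Sdhd, a membrane anchor, had 191, 247, 245 and 230.2 CPM against 167, 173, 183 and 192 CPM, and Sdhc, the other anchor, had 98.9, 111, 101 and 111 CPM against 87.2, 87.9, 83.2 and 85.6 CPM. Sdhb and Sdhc were separate between ages and Sdhd was separate within each date. Their log2 fold changes were -0.38 ± 0.09, -0.32 ± 0.08 and -0.37 ± 0.08 for Sdhb, Sdhc and Sdhd (edgeR adjusted p = 0.0127, 0.021 and 0.0102).

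In complex III, Uqcrc1 (9:108936648-108949641, plus strand), a core protein of the matrix side, had 458, 476, 446 and 424 CPM in young and 378, 338, 373 and 365 CPM in old vehicle libraries. The groups did not overlap, and the log2 fold change was -0.33 ± 0.06 (edgeR adjusted p = 0.00441). Uqcr10, a small membrane subunit, had the largest difference of the complex, with 90.3, 92.0, 119 and 129.8 CPM against 71.4, 72.3, 93.1 and 89.9 CPM and a log2 fold change of -0.42 ± 0.08 (edgeR adjusted p = 0.00452). It was separate within each date and overlapped across dates. Uqcrfs1, the Rieske iron-sulfur protein, was at -0.29 ± 0.10 and missed the threshold (edgeR adjusted p = 0.0777).

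In complex IV, Cox5a (9:57521232-57532426, plus strand), a nuclear subunit on the matrix face, had 128, 152, 189 and 183 CPM in young and 98.8, 99.2, 125 and 146 CPM in old vehicle libraries, with a log2 fold change of -0.50 ± 0.08 (edgeR adjusted p = 0.00228). Cox6a1, the ubiquitous form of subunit 6a, had 176, 219.7, 249 and 263 CPM in young and 158, 148, 186 and 193 CPM in old libraries, at -0.42 ± 0.08 (edgeR adjusted p = 0.00416). Both were separate within each date. Cox8a, at -0.34 ± 0.06, and Cox7a2, at -0.51 ± 0.10, were also lower (edgeR adjusted p = 0.00431 and 0.00622). The differences of Cox4i1 (-0.23), Cox7b (-0.34), Cox6b1 (-0.26) and Cox6b2 (-0.61), the last known from testis, passed as well. Cox7a2l, which is known as a factor for joining complexes III and IV, had 91.3, 105, 82.5 and 97.0 CPM in young and 106, 113, 94.0 and 112 CPM in old libraries, with a log2 value of 0.16 ± 0.10 (edgeR adjusted p = 0.292).

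In complex V all 5 genes of the soluble F1 head were lower in old vehicle libraries, as were all 3 genes of the c ring and 4 of 7 genes of the stalk and membrane part. Atp5b (10:128083307-128090388, plus strand) had 1459, 1581, 1708 and 1740.5 CPM in young and 1300.3, 1238, 1395 and 1389 CPM in old libraries. The 4 old libraries were all below the 4 young ones, and the log2 fold change was -0.31 ± 0.05 (edgeR adjusted p = 0.00239). Atp5a1 and Atp5c1, the alpha and gamma subunits of the head, were at -0.23 ± 0.05 and -0.23 ± 0.06 (edgeR adjusted p = 0.011 and 0.0298). Of the c ring genes, Atp5g3 had 227, 243, 273 and 284 CPM against 203, 184, 209 and 217 CPM, Atp5g1 had 131, 155, 165 and 167 CPM against 110.4, 109, 116 and 130.3 CPM, and Atp5g2 had 40.8, 48, 43.1 and 51.7 CPM against 33.6, 34.2, 36.3 and 39.9 CPM. In each of the 3 the old libraries lay below the young ones without overlap. Their log2 fold changes were -0.36 ± 0.07, -0.43 ± 0.08 and -0.37 ± 0.12 (edgeR adjusted p = 0.00401, 0.00441 and 0.0469). Atp5k, subunit e of the membrane part, had the largest difference of the complex, at -0.52 ± 0.12 (edgeR adjusted p = 0.0158). The remaining 2 genes with this prefix, Atp5s and Atp5sl (named after their values were seen), had values of 0.20 ± 0.17 and 0.13 ± 0.17. Atp5s is known as a coupling factor, and the product of Atp5sl is known to act in complex I assembly, so neither is a subunit of the enzyme proper. These 2 genes and Cox7a2l were the 3 of the 78 above 0.

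The median over the 78 genes was as large within each date, at -0.30 on date 1 and -0.29 on date 2, with 3 and 2 genes called lower in these fits of 2 against 2 mice (against 3.38% and 1.31% of all genes). A test of whether the age difference differed between dates called 0 of 78 genes (edgeR, smallest adjusted p = 0.889, 0 at a raw p under 0.05) and 0% of all genes. Leaving out 1 mouse at a time left 19 to 45 of the genes called, with the fewest without old mouse 480 (19) and young mouse 478 (20), then old mouse 485 (24) and young mouse 484 (26). All 44 kept their sign in every fit tried, and 18 of the 44 passed in each of the 8 fits with 1 mouse left out. Among those 18 were Atp5b, Atp5a1, Atp5g1, Atp5g3, Cox5a, Cox6a1, Cox7a2, Cox8a, Ndufa4, Ndufb7, Sdhb, Sdhd, Uqcr10 and Uqcrc1. Without the date term 14 were called, and 30 with upper-quartile scaling.

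Short genes moved with this comparison too. Among genes outside the set, those under 1 kb had a median of -0.13 (11.9% lower in old) and those of 1 kb or more a median of 0.01 (8.32% lower). For the subunit genes the medians were -0.33 under 1 kb (32 of 51 lower) and -0.24 at 1 kb or more (12 of 27 lower). Over 77 of the genes, leaving out Cox6a2, the age difference and exon length had a Spearman rho of 0.52, a description across genes that share their libraries. The part of transcript length in the result was not tested.

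In the dmPGE2 libraries fewer of the genes passed the same comparison. Of 78 genes tested, 7 were lower in old mice and 0 higher (edgeR, 13279 genes), while over all genes 6.41% were lower and 14.3% changed in either direction, so the share of the subunits, 8.97%, was near the background. The median was -0.10, with 62 of 78 below 0. Short genes outside the set differed between the arms too. Those under 1 kb had a median of 0.02 here and -0.13 in vehicle libraries. For the subunit genes the medians here were -0.10 under 1 kb and -0.12 at 1 kb or more. Their age difference and exon length had a Spearman rho of 0.05 over 77 genes, against 0.52 in vehicle libraries. The part of transcript length in the smaller difference was not tested. By complex the medians were -0.08, -0.09, -0.11, -0.13 and -0.11 for I to V. Within dates the median was -0.04 on date 1 (45 of 77 below 0) and -0.15 on date 2 (62 of 78 below 0), and for complex IV it was 0.015 and -0.25. In these fits 1 gene was called lower on date 1, Sdhd (-0.24), and 0 on date 2, against 6.72% and 0.74% of all genes called lower. On date 2, 7 of the 78 genes had a raw p under 0.05, against 2185 of all 13518 genes. The test of the difference between dates called 0 of the 78 (edgeR, smallest adjusted p = 0.487, 3 at a raw p under 0.05) and 0.0377% of all genes. Every old library was below every young library for 6 genes, against 5.95% of all genes, and within each date for 17 genes, against 12.2% of all genes. In these libraries the 10 myeloid genes summed to 627 to 661 CPM in young and 686 to 810 CPM in old mice on date 1, and to 3880 to 4450 against 2820 to 2920 CPM on date 2. The erythroid genes gave 1660 to 1730 against 1870 to 2090 CPM on date 1 and 3750 to 3810 against 2170 to 2220 CPM on date 2. The T and NK genes gave 54.4 to 62 against 24.6 to 48.6 CPM on date 1 and 289 to 298 against 154 to 196 CPM on date 2. The stem cell genes gave 4050 to 4300 against 4490 to 5160 CPM on date 1 and 2860 to 2880 against 4050 to 4060 CPM on date 2, with 6 of the 10 called higher in old mice. Of the 10 myeloid genes 1 was called higher (Prtn3, 1.07 ± 0.12) and 1 lower (Mpo, -1.44 ± 0.33). Called lower were also 3 of 10 erythroid, 2 of 9 T and NK and 1 of 5 tested B cell genes (Ms4a1, -2.91 ± 0.63). The part of these cell types in the result was not tested.

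The 7 genes were Atp5g1, Ndufs1, Sdhd, Uqcrc1, Atp5b, Ndufa4 and Atp5g3. Atp5g1 had 108, 117, 157 and 158 CPM in young and 96.2, 93.9, 114 and 116 CPM in old dmPGE2 libraries, with a log2 fold change of -0.36 ± 0.07 (edgeR adjusted p = 0.00784). Ndufs1 had 121, 135, 141 and 141 CPM in young and 101, 109, 97.8 and 108 CPM in old libraries, at -0.38 ± 0.08 (edgeR adjusted p = 0.00865). The old libraries were below the young ones without overlap for Ndufs1 and within each date for Atp5g1. Both passed with any 1 mouse left out, and the other 5 did not. Sdhd was at -0.30 ± 0.07, Atp5g3 at -0.25 ± 0.07, and Uqcrc1, Atp5b and Ndufa4 at -0.21 ± 0.06 each (edgeR adjusted p = 0.0137, 0.0378, 0.0284, 0.0339 and 0.0371). Without the date term 1 gene was called, and 4 with upper-quartile scaling. Leaving out 1 mouse at a time left 2 to 8 genes called, with 2 without young mouse 477 or old mouse 480 and 3 or 4 without mouse 478, 484, 485 or 486.

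**Figure D3:**
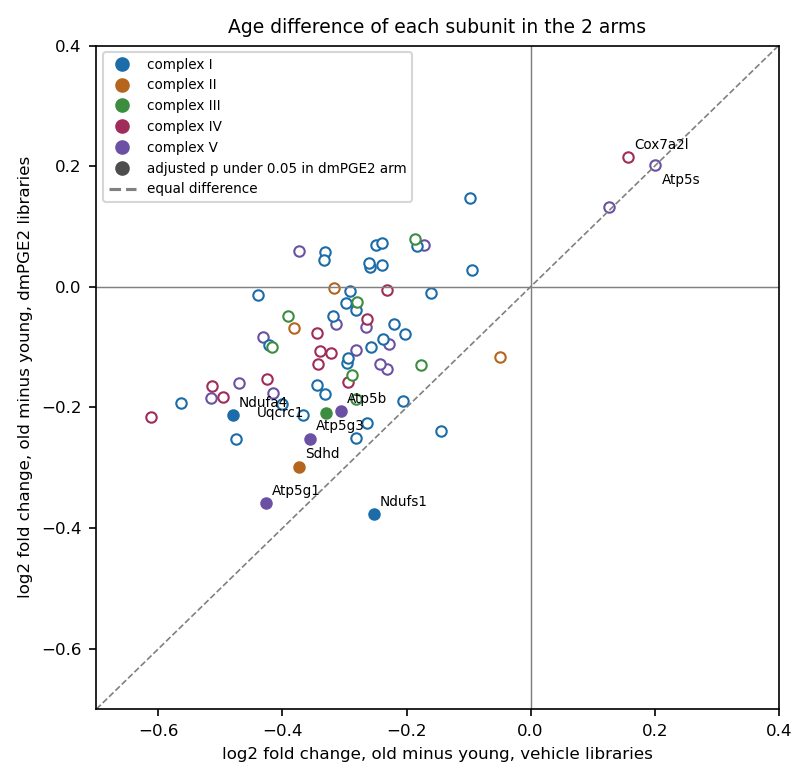
Log2 fold change of each subunit gene between old and young mice in vehicle libraries (horizontal) and in dmPGE2 libraries (vertical), without Cox6a2. Filled points passed an adjusted p of 0.05 in the dmPGE2 libraries, and most points lie above the dashed line of equal difference (medians -0.30 and -0.10).

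Whether the age difference itself changed with dmPGE2 was tested as an interaction, with each mouse as its own control. None of the 79 genes passed (edgeR, smallest adjusted p = 0.696, 0% of all genes called), and DESeq2 and limma-voom also gave 0. At a raw p under 0.05 there were 26 of the 79 genes, against 955 of all 13942 genes. Of the 79 values 74 were above 0, with a median of 0.21 against -0.01 over all genes. Cox4i1 had the smallest raw p, with 0.22 ± 0.07, and Atp5g2 had 0.42 ± 0.17. The value of Ndufs1 was -0.13 ± 0.12. Among genes outside the set under 1 kb, the median change with dmPGE2 was -0.15 in young and 0.01 in old mice. For the subunit genes under 1 kb these medians were -0.22 and 0.02, and for the longer ones -0.08 and 0.04. The part of transcript length in the interaction was not tested.

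dmPGE2 alone changed no subunit gene past the threshold. Over all mice, 0 of 79 genes were called by edgeR, DESeq2 or limma-voom, against 0.61% of all genes called by edgeR. At a raw p under 0.05 there were 12 of the 79 genes and 1749 of all 13942 genes. The median was -0.09 against -0.00 over all genes. In old mice 0 genes were called (median 0.03, 53 above 0), with 1 at a raw p under 0.05 against 1096 of all 13942 genes. The tilt above 0 in old mice depended on the setting: upper-quartile scaling gave 41 above and 38 below 0, and without mouse 485 the median was -0.01. In young mice 0 genes were called by edgeR (median -0.19, 73 below 0), with 37 at a raw p under 0.05 against 1785 of all 13942 genes. No gene of any kind was called in the edgeR fit for either age alone (0% each). In young mice DESeq2 called 3 genes, Cox4i1 (-0.22), Atp5j2 (-0.34) and Ndufb7 (-0.37), where it called 2.66% of all genes with an adjusted p, and limma-voom called 0.

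For Atp5j2, subunit f of the ATP synthase, vehicle and dmPGE2 libraries had 102 and 80.3 CPM in young mouse 477, 128 and 88.8 in 478, 138 and 127 in 483, and 148 and 117 in 484. The dmPGE2 library was the lower in each young mouse, with a log2 fold change of -0.33 ± 0.08 (edgeR adjusted p = 0.163). For Cox4i1 the young pairs were 313 and 268, 339 and 274, 367 and 339.9, and 388 and 336 CPM, at -0.21 ± 0.05 (edgeR adjusted p = 0.176). The pairs of the old mice were 287 and 295, 281 and 279.8, 327 and 320.4, and 322 and 320.1 CPM for Cox4i1. Here the dmPGE2 library was the higher in mouse 479 and the lower in the other old mice, and the age by dmPGE2 term of this gene is given above.

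The young pairs of date 1 had the lower values. Their share of counts on all 79 genes went from 1.27 to 1.15% in mouse 477 and from 1.42 to 1.16% in mouse 478, and on date 2 from 1.37 to 1.29% in mouse 483 and from 1.41 to 1.33% in mouse 484. In old mice it went from 1.12 to 1.09%, 1.07 to 0.997%, 1.12 to 1.16% and 1.19 to 1.18% in mice 479, 480, 485 and 486. In a fit of date 1 alone, 6 subunit genes were lower with dmPGE2 in young mice (against 3.45% of all genes called): Ndufa4 (-0.40), Atp5e (-0.49), Cox6b1 (-0.36), Atp5j2 (-0.44), Ndufc1 (-0.54) and Cox8a (-0.33). Of these, Atp5j2 and Ndufc1 were picked for naming after their values were seen. Over both ages of date 1, Ndufa4 (-0.23) and Atp5g1 (-0.27) were lower (against 5.24% of all genes). On date 2 alone 0 were called in young mice or over both ages, against 0.177% and 0.362% of all genes called. At a raw p under 0.05 there were 1 and 0 subunit genes, against 790 and 734 of all 14101 genes. The medians for young mice were -0.27 on date 1 and -0.09 on date 2, and a test of the difference between dates called 0 of 79 genes (edgeR, over both ages, smallest adjusted p = 0.25, 4 at a raw p under 0.05), against 1.08% of all genes. The value of each gene in young mice and its exon length had a Spearman rho of 0.58 over 78 genes, and other genes under 1 kb had a median of -0.15. The part of transcript length in it was not tested.

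**Figure D4:**
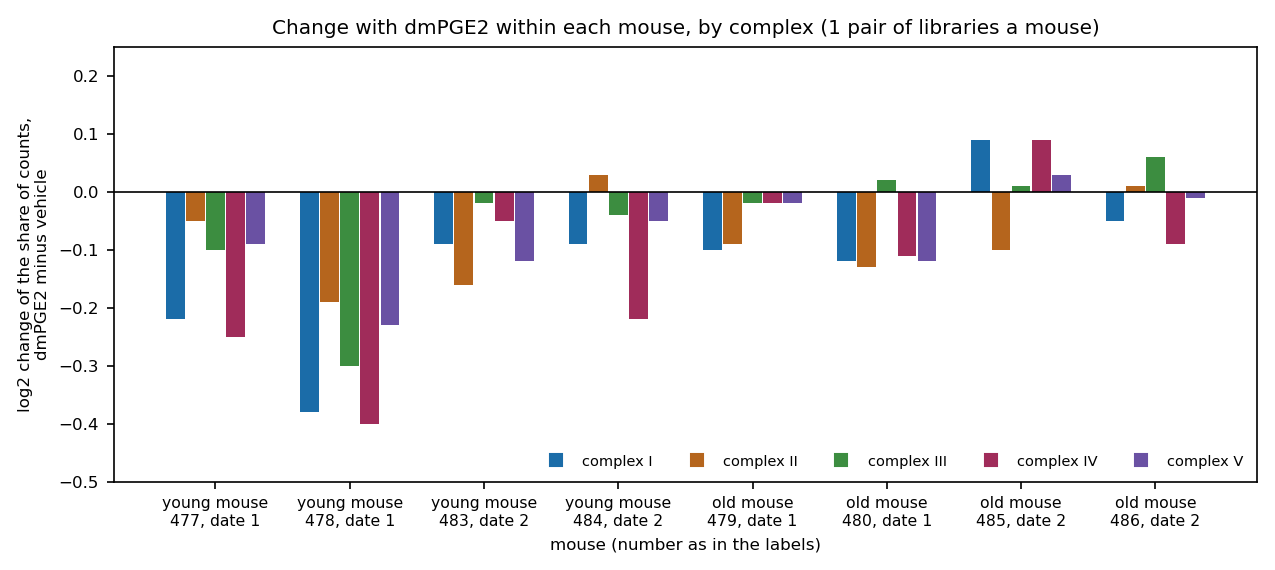
Log2 change of the share of counts on each complex, dmPGE2 minus vehicle, in each of the 8 mice (1 pair of libraries a mouse, so no error bars). Mouse 478 has the lowest bars, down to -0.40 for complex IV, and old mouse 485 has bars above 0 for complexes I, III, IV and V.

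Between dates the vehicle libraries differed in 13 of 78 genes, all higher on date 2, against 8% of all genes higher and 11% changed in either direction. These were 6 genes of complex IV (Cox6a2, Cox5a, Cox6a1, Cox7b, Cox7c and Cox4i1), 3 of complex V (Atp5e, Atp5k and Atp5l), Uqcr10 and Uqcrq of complex III, and Ndufb7 and Ndufa1 of complex I. Of these, Cox7c, Atp5l and Ndufa1 were picked for naming after their values were seen. Of the 13, 12 were under 1 kb, and the median date difference was 0.19 for the subunit genes under 1 kb, 0.07 for the longer ones and 0.09 for other genes under 1 kb. Uqcrq, a ubiquinone-binding subunit of complex III, had a log2 value of 0.54 ± 0.11, Atp5e, the epsilon subunit, 0.54 ± 0.09, Atp5k 0.55 ± 0.12, Cox5a 0.43 ± 0.08 and Uqcr10 0.40 ± 0.08 (edgeR adjusted p = 0.00968, 0.00294, 0.0159, 0.00635 and 0.00767). In the same comparison 9 of 10 stem cell markers were lower on date 2 (median -0.47). Higher were 9 of 10 myeloid, 8 of 10 erythroid, 8 of 9 T and NK and 1 of 4 tested B cell markers. The B cell marker was Cd79a (5.39 ± 0.68, edgeR adjusted p = 0.000432). Short genes moved with date as well, and their part in the result was not tested. Leaving out 1 mouse left 5 to 12 genes called, with 5 without mouse 477, 480 or 484, 7 without 483 or 486 and 8 without 485.

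Cox6a2 (7:128205435-128206366, minus strand), the heart and muscle form of complex IV subunit 6a, was the exception in size. It had 0.33 and 0.38 CPM in young and 0.17 and 0.11 CPM in old vehicle libraries of date 1, and 11 and 10.4 CPM in young and 1.05 and 5.69 CPM in old vehicle libraries of date 2. The date 1 libraries hold 2 to 7 counts each, near the limit that 3 counts set (0.156 to 0.231 CPM), and the date difference was 4.74 ± 0.61 on the log2 scale (edgeR adjusted p = 0.00047). The dmPGE2 libraries had 0.11 and 0.10 CPM in young and 0.23 and 0.31 CPM in old mice of date 1, and 14.1 and 4.85 CPM in young and 2.39 and 9.46 CPM in old mice of date 2. All 8 libraries of date 2 were above all 8 of date 1. The myeloid and T and NK marker genes rose with date in the same libraries (9 T and NK genes gave 24.6 to 84.3 CPM on date 1 and 126 to 322 CPM on date 2), and their part in the Cox6a2 level was not tested.

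Other alternative forms stayed low. In young vehicle libraries Cox4i1 had 460 ± 42.5 and Cox4i2 3.28 ± 0.396 CPM per kb, Cox6b1 had 443 ± 49 and Cox6b2 35.4 ± 7.18, and Cox7a2 had 152 ± 26.0 and Cox7a1 1.71 ± 0.505 (SD, n = 4). Among the c ring genes the order was Atp5g3 with 355 ± 36.6, Atp5g1 with 178 ± 19.2 and Atp5g2 with 70.9 ± 7.61 CPM per kb, and these ranges did not meet. In old vehicle libraries the order was the same, with 281 ± 19.6, 134 ± 11.3 and 55.7 ± 4.42 CPM per kb.

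**Figure D5:**
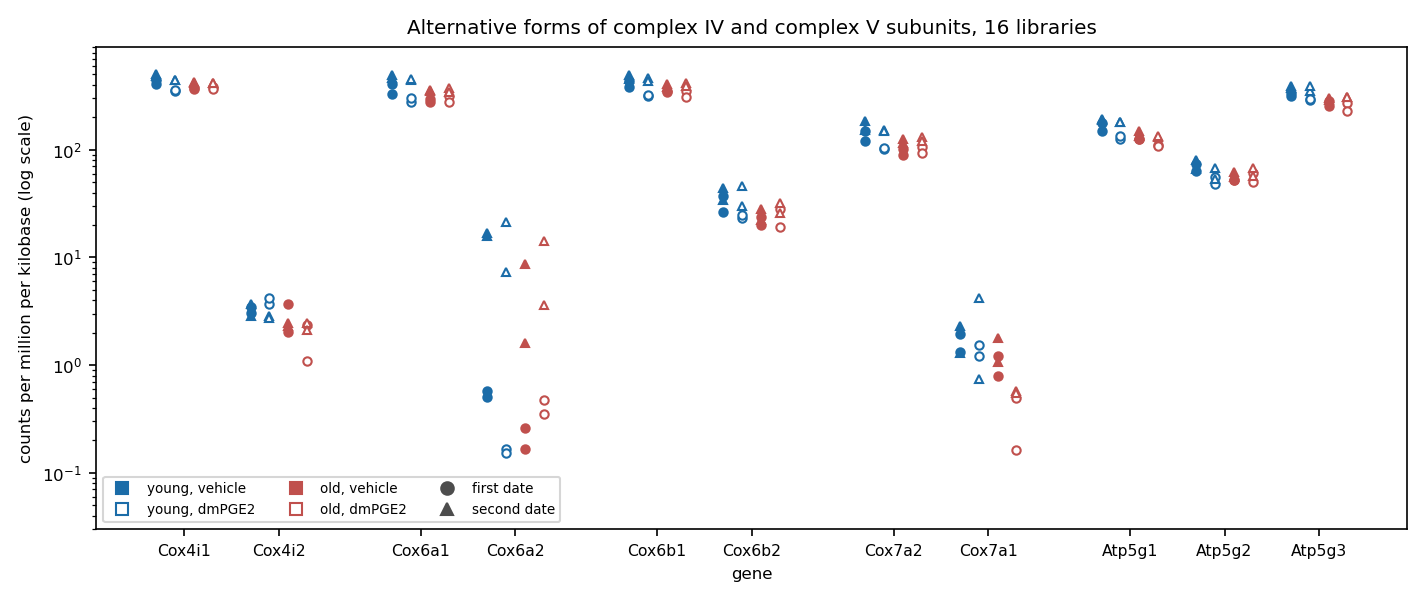
Level of alternative subunit forms in each library, in CPM per kb of exon on a log axis (blue, young; red, old; open, dmPGE2; circles, date 1; triangles, date 2). Cox6a2 separates the dates, and Atp5g3, Atp5g1 and Atp5g2 keep their order in all 16 libraries.

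Genes that work with the subunits were counted from lists, to be read against the 8.86% of all genes that were lower in old vehicle libraries. Of 6 subunits and close partners whose names fall outside the 79, 5 were lower in old vehicle libraries: Cyc1, the cytochrome of complex III (-0.43 ± 0.08), Cycs, cytochrome c (-0.50 ± 0.11), Atpif1, the inhibitor of the ATP synthase (-0.33 ± 0.07), Ndufab1, an acyl carrier protein in complex I (-0.42 ± 0.10), and Usmg5, a small ATP synthase protein (-0.33 ± 0.09). The edgeR adjusted p values were 0.00364, 0.0088, 0.0114, 0.0187 and 0.035. Of the assembly factors, which help to build the complexes and do not stay in them, those called lower were 0 of 14 for complex I, 0 of 4 for complex II, 1 of 6 for complex III (Uqcc2, -0.42 ± 0.12), 2 of 21 for complex IV (Higd1a, -0.55 ± 0.14, and Coa3, -0.34 ± 0.11) and 0 of 3 for complex V, with medians of -0.20, -0.03, -0.07, -0.16 and -0.12. Taken over the 5 lists, the assembly factors were near or below that share, and whether they differ from the subunits was not tested. Of 77 genes of the mitochondrial ribosome, which translates the subunits encoded in mitochondrial DNA, 16 were lower and 0 higher, with a median of -0.28 and 75 below 0. Of 15 regulators of mitochondrial gene expression 1 was lower, Nrf1, the factor whose letters were searched above (-0.38 ± 0.11, edgeR adjusted p = 0.0333). In the dmPGE2 libraries 0 of the 6 partners, 2 of the 77 ribosome genes and 0 of the 15 regulators were lower in old mice, against 6.41% of all genes. Of the assembly factors, 1 of 21 for complex IV was lower there (Lrpprc, -0.42 ± 0.12, edgeR adjusted p = 0.0438). For complex II, 1 of 4 was higher (Sdhaf4, 0.47 ± 0.13, edgeR adjusted p = 0.0396), and for complexes I, III and V 0 were called.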

How the data were processed

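The authors deposited 1 table of raw counts per gene for the 16 libraries (4 in each of 4 groups, 12960704 to 19226963 counts each). Per the submitters' processing notes, STAR 2.5.2b, featureCounts, Subread 1.5.1 and mm10 were used (settings not stated there). The table has 14829 named genes and 2504 empty lines, which were dropped.

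The subunit genes and the other gene lists were chosen with earlier results of these data known. Counts were tested with edgeR 4.0.16 (R 4.3.3; quasi-likelihood, robust dispersion, TMM scaling, its default filter on low counts), with Benjamini-Hochberg adjustment over all genes tested and a threshold of 0.05. The dmPGE2 comparisons used all 16 libraries with the mouse as a block (13942 genes, 6 residual degrees of freedom). Each age comparison used the 8 libraries of 1 arm with a term for date (5 residual degrees of freedom), and the date comparison is that term in the vehicle libraries. A standard error is the size of the log2 fold change divided by the square root of F. CPM values are scaled by TMM, and percentages are of raw library totals. The limit that 3 counts set covers counting error only.

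The labels pair a vehicle and a dmPGE2 library by mouse number. The 2 correlated at 0.374 to 0.626 after group means were removed and at 0.014 to 0.181 after date means were removed as well. For mouse 477 the best match of the vehicle library was not the dmPGE2 library of the same mouse, while for each other mouse it was. No library was a duplicate of another in its group. The fits were tested on simulated data, where 46% of genes changed 1.25-fold and 92% of those changed 1.5-fold were recovered in the age comparison of vehicle libraries (13528 genes). The simulation gave every gene the same dispersion, changed only genes above a count limit and held no mouse effect. These rates therefore need not hold for the real libraries. Alternatives were DESeq2 1.42.0, limma 3.58.1 (voom), other scalings, no filter, no date term, each date alone and leaving out each mouse. Upper-quartile scaling was added after seeing the data.

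Genes named are up to 6 called per direction and comparison by smallest p, the one with the largest age or dmPGE2 difference in each complex, catalytic and alternative forms, and up to 3 called genes of each other list; further ones are marked where they appear or are members of a count named in full. Promoter windows come from RefSeq (GRCm38.p6).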

Additional observations from a re-analysis of the deposited data

Results flagged for a closer look

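In 8 of 160 groups of 4 values, 1 library lay so far from the other 3 that the gap passed Dixon's critical value for outliers; chance gives about 1 in 20 such groups. Young vehicle mouse 477 had 116 CPM of Uqcr11, a small complex III subunit, against 140 to 144 CPM in the others, and 0.501% of counts on complex V against 0.542 to 0.55%. Young dmPGE2 mouse 484 had 356 CPM of Atp5c1 against 311 to 316 CPM. Sdha was at 545 CPM in young dmPGE2 mouse 483 against 651 to 666 CPM, and at 651 CPM in old vehicle mouse 480 against 605 to 610 CPM. Cox6a2 was at 5.69 CPM in old vehicle mouse 486 against 0.11 to 1.05 CPM. Old dmPGE2 mouse 480 had 1250 CPM of Atp5b against 1380 to 1400 CPM. Cox7a1 was at 0.0568 CPM in old dmPGE2 mouse 479, which is 1 count, against 0.185 to 0.205 CPM.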

How the results depend on the processing

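Counts of subunit genes called moved with the setting, and no called gene changed sign in the settings run. For old against young vehicle libraries (44 genes), leaving out 1 mouse gave 19 to 45, date 1 alone 3, date 2 alone 2 and no date term 14; RLE scaling, no filter, DESeq2, voom and upper-quartile scaling gave 40, 39, 50, 46 and 30. For dmPGE2 libraries (7 genes), leaving out 1 mouse gave 2 to 8, date 1 alone 1, date 2 alone 0, no date term 1 and upper-quartile scaling 4. For date 2 against date 1 (13 genes), leaving out 1 mouse gave 5 to 12, young mice alone 1, old mice alone 0 and upper-quartile scaling 8. For dmPGE2 in young mice (0 genes), DESeq2 gave 3 and date 1 alone 6; over all mice (0 genes), date 1 alone gave 2. The causes were not tested, beyond the fewer libraries in fits of 1 date or age. Without the replicate block, 0 genes were called in each of the 4 dmPGE2 comparisons, as with it. Of the values for single genes, most of them not called to begin with, 3967 stayed on their side of the threshold, 226 lost a call and 17 gained one. Of the medians by complex, 603 moved by less than the spread and 7 by more, 4 of these in old against young dmPGE2 libraries of 1 date (-0.02, 0.015 and -0.01 for complexes III, IV and V on date 1, -0.19 for complex III on date 2). With 2 mice per age and date, fits of 1 date rest on few libraries.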

Other observations

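Genes of neighbouring pathways were counted in the same age comparison of vehicle libraries, where 8.86% of all genes were lower and 17.3% changed in either direction. In the tricarboxylic acid cycle, which feeds electrons to complexes I and II, 5 of 18 genes were lower in old mice and 0 higher, with a median of -0.24 and all 18 below 0. These included Idh2, the mitochondrial NADP-dependent isocitrate dehydrogenase (-0.46 ± 0.06, edgeR adjusted p = 9e-04), Mdh2, malate dehydrogenase (-0.37 ± 0.07, 0.00652), and Suclg1, a subunit of succinyl-CoA ligase (-0.35 ± 0.08, 0.0108). In dmPGE2 libraries 3 of the 18 were lower, and again all 18 were below 0, with a median of -0.17, against 6.41% of all genes lower. Glycolysis genes went both ways in old vehicle libraries, with 4 of 23 higher and 3 lower and a median of 0.03. Hk2, a hexokinase, and Ldha, lactate dehydrogenase A, were higher (0.88 ± 0.16 and 0.37 ± 0.07), and Tpi1, triose phosphate isomerase, was lower (-0.35 ± 0.07); the edgeR adjusted p values were 0.00408, 0.00491 and 0.00454. Among 7 carriers and pores of the mitochondrial membranes, 3 were lower: Ucp2, an uncoupling protein family member (-0.62 ± 0.07), Slc25a5, an ADP/ATP carrier (-0.36 ± 0.07), and Vdac2, an outer membrane channel (-0.31 ± 0.08), with edgeR adjusted p values of 0.000379, 0.0056 and 0.0171. Of 10 stem cell marker genes 8 were higher in old vehicle libraries and 0 lower, and of 10 myeloid markers 4 were lower and 1 higher.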
